A study of Hordeum vulgare with 28 samples.

Results

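This comparison set barley leaves fed on by the specialist mite *O. pratensis* for 24 h (the group called O24) directly against leaves that had been wounded with sandpaper 24 h earlier (W24). Its members are the 4 samples labelled as infested with this mite at 24 h and the 4 labelled as wounded at 24 h, 8 of the 28 samples of the series, and every gene of the count table was considered. All plants were of the variety Morex, 30 days old, and leaf 5 was used. O24 leaf sections received 200 adult female mites, which fed on both leaf faces, and W24 leaves were abraded on both faces with 60 grit sandpaper (rubbed according to the labels, pressed according to the methods). Barriers of TangleFoot, a sticky non-toxic wax, were on the leaves of every group, the untreated controls (C) included. The remaining groups were leaves with the generalist mite *T. urticae* at 24 h (T24) and the same 3 treatments at 2 h (O2, T2 and W2, with 400 mites per section where mites were used), each with 4 samples. All leaves were collected together, so time of day did not differ between O24 and W24. The wound was a single event, whereas mites stayed on the leaf throughout, so the kind of damage, its extent and its timing cannot be told apart in this contrast.

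Spider mites feed by piercing the leaf with a stylet and emptying single mesophyll cells, the chloroplast-rich cells of the leaf interior, while the epidermis above them can remain intact. Sandpaper abrades the surface and tears cells at random. Both kinds of damage raise jasmonate, the lipid-derived hormone that releases defence genes from repression by JAZ proteins. A herbivore can add salivary signals and continued injury to what tearing alone provides.

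Total counts per sample ran from 18574505 to 24409679 in O24 and from 21594536 to 31354336 in W24, and 18815 to 19358 genes per sample had at least 1 count. The 10 most abundant genes of each library took 5.94% ± 0.245 (SD, n = 4) of the counts in O24 and 10.7% ± 0.499 in W24, without overlap between the groups. That difference gave the smallest p that an exact two-sided permutation test of 4 against 4 allows (p = 0.0286), which was 0.0715 after Benjamini-Hochberg adjustment over 5 library measures. The share of the 100 most abundant genes was 21.4% ± 0.304 in O24 and 30.5% ± 1.41 in W24, also without overlap and with the same p and adjusted p. Total counts (exact permutation p = 0.0571), genes detected (p = 0.0857) and the plastid-encoded share (p = 0.314) did not pass either. Replicates were close to each other. The log2 CPM (counts scaled to a common library total, here adjusted by TMM factors) correlated across tested genes at 0.985 to 0.990 within O24. The values were 0.986 to 0.991 within W24 and 0.840 to 0.872 between the groups, as a description of genes that are not independent. Leaf identity was plain from the nuclear photosynthesis genes, which held 0.591 to 0.794% of the counts in O24 and 1.73 to 2.08% in W24.

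O24 and W24 leaves differed in a large part of the transcriptome. Of the genes with enough counts to test, 4989 were called (29.4%), where a call required an edgeR quasi-likelihood p adjusted over all tested genes under 0.01 and a log2 fold change beyond 1 in either direction. Higher in O24 were 2646 genes (15.6%) and lower were 2343 (13.8%). The 4 O24 and the 4 W24 values of CPM did not overlap for 63.4% of the tested genes, with O24 above W24 for 36.4% and below for 27% of them. These CPM use library totals, without TMM factors, which were 1.05 to 1.12 in O24 and 0.97 to 1.04 in W24. The split between directions therefore also depends on scaling. With TMM factors, 8374 of the 16948 tested genes had a positive log2 fold change, and the median over all was -0.01. The higher genes differed by more than the lower ones: their median log2 fold change was 1.99 with a median standard error of 0.24, against -1.54 and 0.22. Which direction held more genes depended on scaling, since 53% of calls were higher with TMM factors, against 47% when libraries were scaled by their upper quartile and 59% when only the total was used. A test against a fold change of 2, in place of the fold minimum applied afterwards, called 2750 genes. In whole-leaf RNA, fewer cells of a type and less RNA per cell cannot be told apart.

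**Figure D1:**
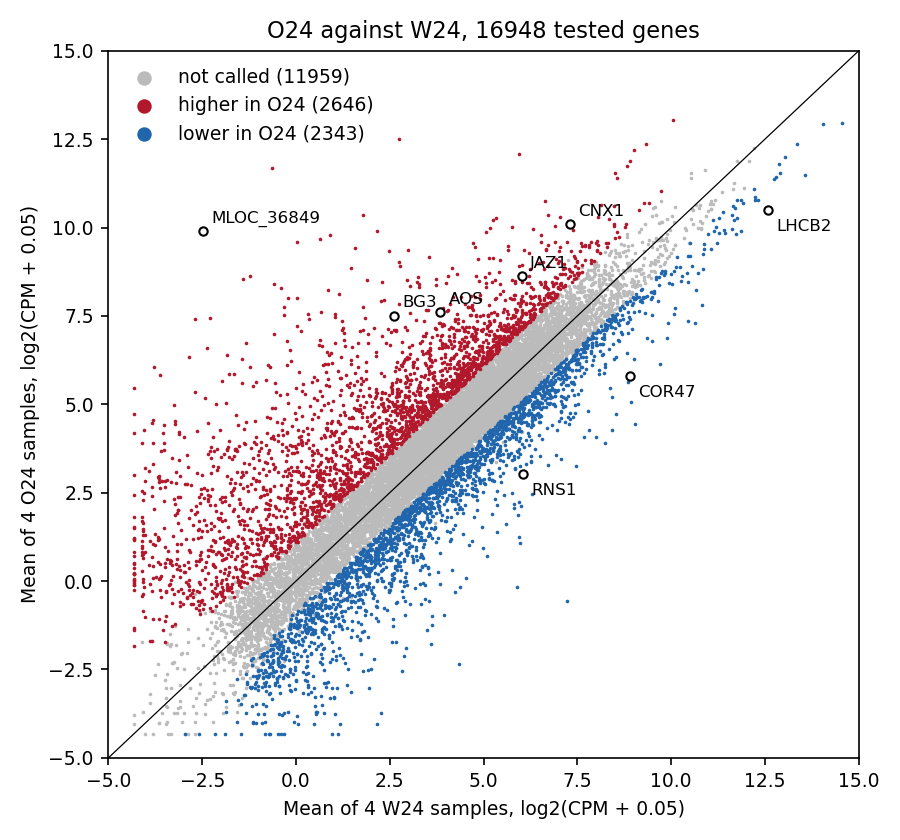
Each point is 1 tested gene, with the mean of 4 W24 samples on the x axis and of 4 O24 samples on the y axis, both as log2(CPM + 0.05), and the diagonal marks equality. Red points are the 2646 genes called higher in O24, blue points the 2343 called lower and gray points the rest, and the red cloud reaches farther from the diagonal than the blue.

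The asymmetry grew with the size of the difference. Beyond 8-fold lay 747 higher and 221 lower genes, and beyond 64-fold 173 and 16. A mean under 1 CPM in W24 together with one over 10 CPM in O24 was found for 150 called genes, while the opposite was found for 15. There were 30 called genes without a single count in the 4 W24 samples and 13 without one in the 4 O24 samples.

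**Figure D2:**
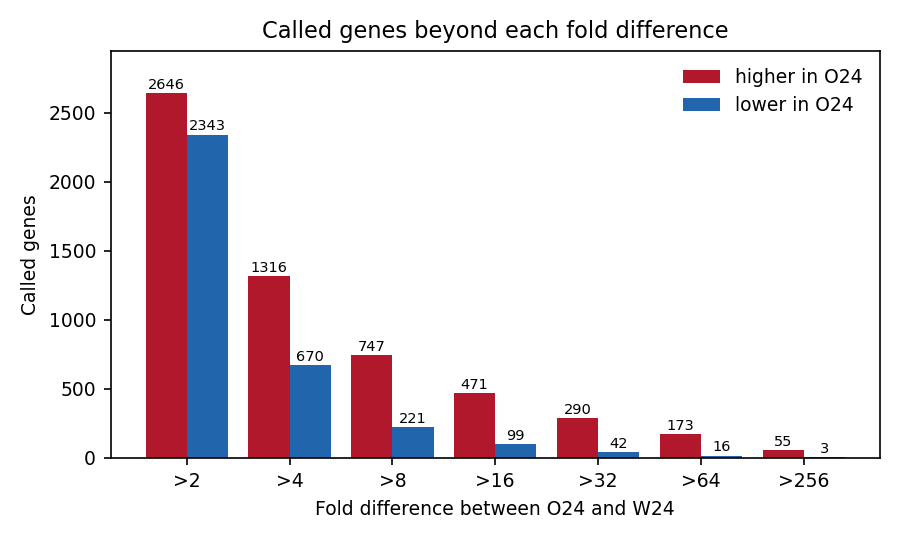
Bars give the number of called genes beyond each fold difference on the x axis, red for genes higher in O24 and blue for genes lower in O24. The numbers are near each other beyond 2-fold (2646 and 2343) and far apart beyond 64-fold (173 and 16).

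The called genes also made up different parts of the RNA pool. Genes called higher held 27.1% ± 1.03 (SD, n = 4) of all counts in O24 and 5.82% ± 0.423 in W24, and genes called lower held 13.8% ± 0.987 and 36.3% ± 1.47. These shares follow from how the genes were chosen and are given as a description. The other groups were not part of the contrast, though they shared its filter, scaling and estimate of spread. In untreated leaves the higher genes held 4.27% ± 0.287 and the lower genes 39.9% ± 2.45, values near those of W24. Leaves with *T. urticae* at 24 h stood between W24 and O24, at 14.9% ± 2.55 and 22.2% ± 3.23. So did leaves 2 h after wounding, at 13.2% ± 1.28 and 23.8% ± 2.03. The 2 h mite groups did not lie between: O2 was at 5.59% ± 0.909 and 36.5% ± 1.93, and T2 at 5.57% ± 0.421 and 37.5% ± 2.25. The median level of the higher genes was 2.44 CPM in C, 3.87 in O2, 3.91 in T2, 4.20 in W24, 6.18 in W2, 12.6 in T24 and 24.2 in O24.

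**Figure D3:**
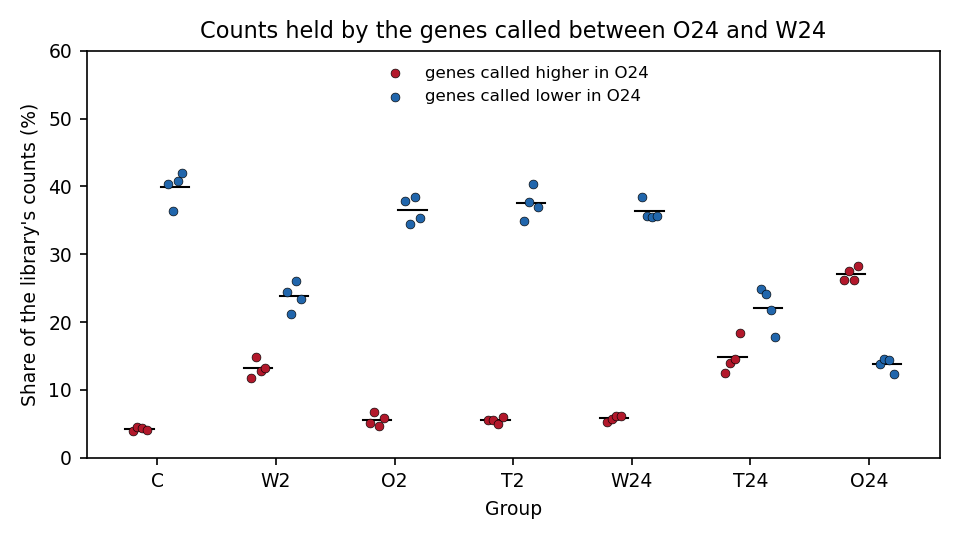
Points are the 28 samples, the y axis is the share of a library's counts in percent, and bars are means of 4. Genes called higher in O24 than in W24 (red) hold 27.1% of O24 counts and genes called lower (blue) 13.8%, with C, W24, T2 and O2 far from O24 on both measures and W2 and T24 between.

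To describe functions, barley genes were paired with Arabidopsis genes through the part of the study's ortholog table given here, and 243 genes in 25 groups of known role were examined, 210 of them tested. Names and roles below are those of the Arabidopsis partner, and whether the barley gene has the same role was not tested. Of the 210 tested, 40 (19%) were higher in O24 and 44 (21%) lower. The groups were chosen with results of these data known, so their counts are descriptions to be read against the shares for all genes above. Of the 1828 tested genes with a partner in the given part, 10.8% were higher and 12.3% lower, a nearer baseline for the groups.

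**Figure D4:**
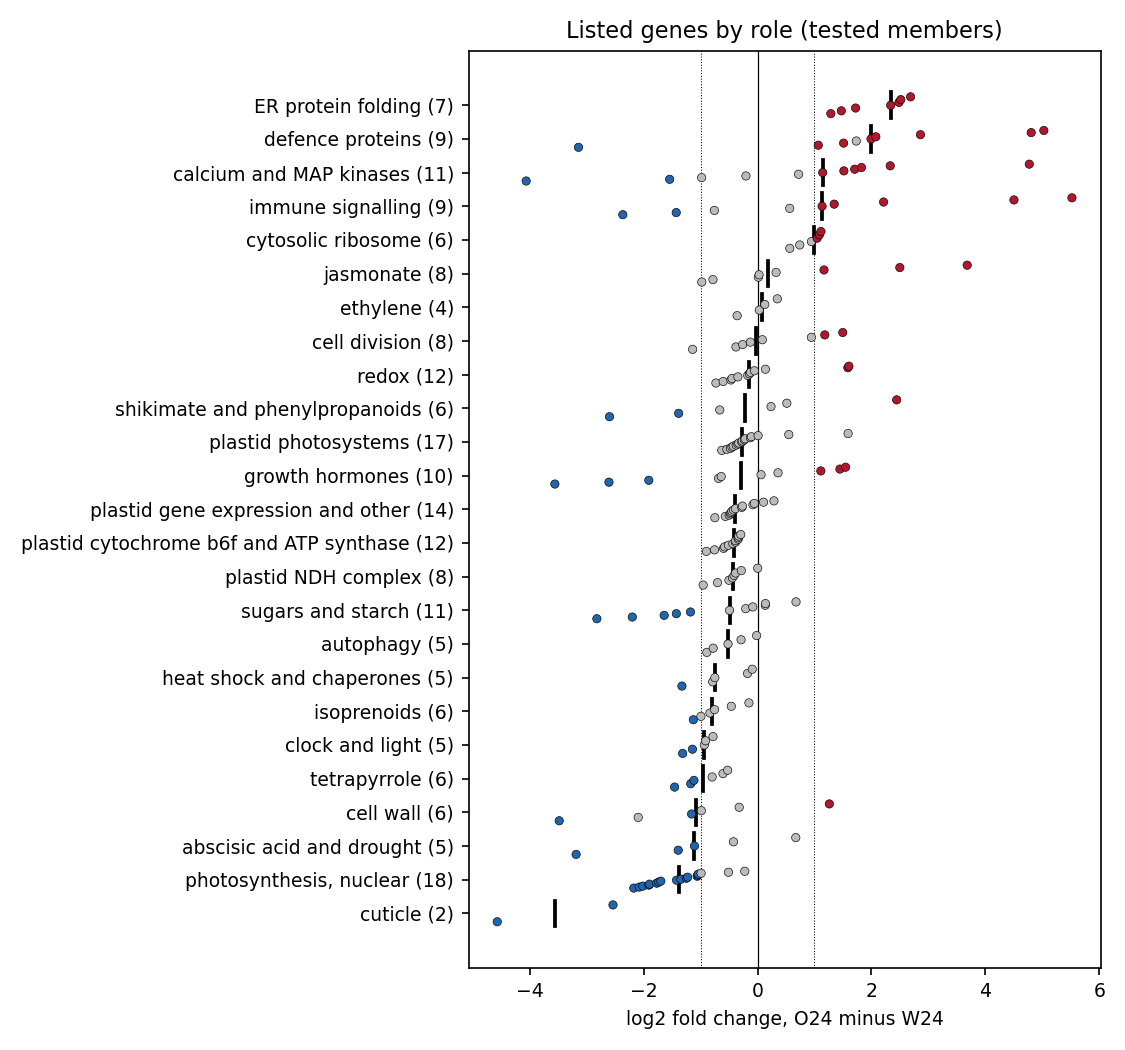
Each point is 1 tested gene, placed by its log2 fold change of O24 minus W24 on the x axis and by group on the y axis (tested members in parentheses), and the thick bar is the group median. Red and blue are called higher and lower, gray is not called, and dotted lines mark the fold minimum. All 7 genes of protein folding in the endoplasmic reticulum lie to the right and 15 of 18 nuclear photosynthesis genes are blue.

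Some jasmonate genes were much higher in O24 than in W24, and others were not called. AOS encodes allene oxide synthase, which commits a fatty acid hydroperoxide to jasmonate. It stood at 269, 281, 134 and 95.9 CPM in the 4 O24 samples and at 17.2, 17.01, 13.1 and 9.82 in W24. Every O24 sample was above every W24 sample, though O24 replicates 1 and 2 were well above replicates 3 and 4. The log2 fold change was 3.68 ± 0.50 (SE, edgeR adjusted p = 5.89e-07). In the other groups its mean was 1.55 ± 1.42 CPM (SD) in C, 204 ± 84.5 in W2 and 351 ± 67.8 in T24.

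JAZ1, a repressor whose gene jasmonate itself switches on, had 407, 442, 340 and 380 CPM in O24 and 65.4, 62.8, 69.9 and 61.6 in W24. The W24 samples were tightly grouped far below O24, at a log2 fold change of 2.50 ± 0.24 (edgeR adjusted p = 1.03e-09). W2 leaves had 376 ± 94.1 CPM and untreated leaves 20.9 ± 4.88, so W24 lay closer to untreated leaves than to leaves 2 h after the wound. NINJA, the adaptor that ties JAZ proteins to the co-repressor TOPLESS, had 85.4, 88.5, 76.7 and 66.2 CPM in O24 against 36.0, 33.8, 33.7 and 28.4 in W24. Its groups did not overlap either, and its log2 fold change was 1.17 ± 0.16 (edgeR adjusted p = 3.11e-07), but it did not pass the test against a fold change of 2 (adjusted p = 0.205).

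In all, 3 of the 8 tested jasmonate genes were higher and 0 lower, with a median log2 fold change of 0.18 against -0.01 over all tested genes. The 5 others included ACX4, a peroxisomal acyl-CoA oxidase, at 0.03 ± 0.08. They also included ST2A, a sulfotransferase that inactivates hydroxyjasmonate, at 0.01 ± 0.14. A peroxisomal acyl-CoA ligase (4CL-like-1), of a kind able to activate jasmonate precursors, was at -0.98 ± 0.08, just inside the fold minimum. It was called lower without O24 replicate 1 (-1.004), without O24 replicate 4 (-1.02), without W24 replicate 2 (-1.02) or with upper-quartile scaling (-1.08). The remaining genes, 4CL-like-2 at -0.78 ± 0.11 and JAM2 at 0.33 ± 0.08, were also inside it. For 4CL-like-1, 4CL-like-2 and JAM2 the edgeR adjusted p was under the threshold and the groups did not overlap.

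The defence protein group, which holds secreted proteins and other genes linked to wounding or defence, had 7 of 9 tested genes higher in O24 and 1 lower, with a median log2 fold change of 1.99. BG3, a beta-1,3-glucanase that cuts callose and fungal walls, had 195, 157, 177 and 200 CPM in O24 and 4.40, 7.12, 7.55 and 5.39 in W24. No untreated or 2 h mite sample group averaged above 1 CPM for this gene, whereas T24 averaged 78.6 ± 21.4. The log2 fold change of O24 over W24 was 4.80 ± 0.21 (edgeR adjusted p = 8.74e-16). CHIV, a class IV chitinase, had 16.3, 21.1, 16.0 and 18.6 CPM in O24 and 0.468, 0.316, 1.11 and 0.255 in W24. All O24 values exceeded all W24 values, with a log2 fold change of 5.03 ± 0.40 (adjusted p = 3.80e-11). Further members called higher were a PR-1 relative at 2.86 ± 0.43, the wound-inducible peptide transporter PTR3 at 2.08 ± 0.15, a thaumatin-like protein at 1.99 ± 0.44, the senescence-associated LEA protein SAG21 at 1.51 ± 0.22, and the steroid reductase VEP1 at 1.07 ± 0.13. VEP1 fell under the fold minimum without O24 replicate 2 (0.97) and with upper-quartile scaling (0.96). Against a fold change of 2, 4 of the 7 remained.

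A pair of genes in this group behaved otherwise. RNS1, a secreted ribonuclease known in Arabidopsis as wound-induced, had 11.9, 9.18, 5.42 and 5.78 CPM in O24 and 65.6, 50, 75.5 and 74.6 in W24. It was lower in every O24 sample, at a log2 fold change of -3.14 ± 0.31 (edgeR adjusted p = 2.49e-09). O24 was near the untreated level of 5.92 ± 1.64 CPM, while T24, the generalist at the same time, was at 80.0 ± 5.65. The protease inhibitor PI-I, of the potato inhibitor I family, had 1040, 592, 181 and 360 CPM in O24 and 242, 177, 90.9 and 93.8 in W24. The groups overlapped and the difference just missed the threshold, at 1.73 ± 0.58 (adjusted p = 0.0103). It was called when O24 replicate 3 (2.01), O24 replicate 4 (1.89) or W24 replicate 1 (2.10) was left out. It was also called with the replicate number as a block (1.69, adjusted p = 0.00854), with RLE factors (1.76), with limma-voom (1.60) and with the stricter filter on low values.

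Immune receptors and regulators were higher in 5 of 9 tested cases and lower in 2, with a median log2 fold change of 1.13. BIR1, a receptor-like kinase that restrains cell death, had 60.6, 56.2, 54.3 and 59.3 CPM in O24 and 12.5, 11.6, 11.9 and 10.3 in W24. Neither group varied much, and O24 was 4.64-fold higher (log2 fold change 2.21 ± 0.13, edgeR adjusted p = 1.64e-13). PAD4, a lipase-like regulator of salicylic acid signalling, had 64.3, 78.6, 71.0 and 63.0 CPM against 24.5, 24.6, 26.8 and 26.02. The groups again stood apart, at 1.35 ± 0.12 (adjusted p = 3.89e-10). OM66, an AAA ATPase of the outer mitochondrial membrane, had 20.4, 16.2, 18.95 and 14.46 CPM in O24 against 0.740, 0.593, 1.11 and 0.478 in W24, a log2 fold change of 4.50 ± 0.26 (adjusted p = 5.70e-14). A lectin receptor-like kinase (RLK1) showed 5.52 ± 0.56, and PBS1, a cytoplasmic kinase guarded by an immune receptor, 1.13 ± 0.08. The called genes with lower levels were SNAP33, a SNARE protein of secretion with under 1 CPM in both groups that did not pass against a fold change of 2 (adjusted p = 0.0297), and PMR4. PMR4 is the synthase of wound callose and had 25.5, 23.4, 24.6 and 21.96 CPM in O24 against 53.1, 56.9, 61.5 and 68.4 in W24, at -1.43 ± 0.10 (adjusted p = 2.88e-12). Untreated leaves were at 58.8 ± 2.21 CPM for PMR4, so O24, not W24, departed from the untreated level.

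Calcium sensors and MAP kinases relay injury signals within minutes of damage, and 6 of 11 tested genes were higher in O24 and 2 lower (median 1.14). MPK3, a MAP kinase that wounding and pathogens activate, had 167, 191, 159 and 173 CPM in O24 and 50.1, 44.7, 59.3 and 43.3 in W24. O24 samples were all far above W24, at 1.71 ± 0.17 (edgeR adjusted p = 2.09e-09). MAPKKK5, an upstream kinase, had 111, 103, 105 and 114 CPM in O24 and 19.8, 20.9, 19.6 and 20.2 in W24. Its spread within groups was small and its log2 fold change was 2.33 ± 0.10 (adjusted p = 2.85e-16). CPK7, a calcium-dependent kinase, had 125, 151, 126 and 136 CPM against 30.3, 33.7, 40.1 and 38.4, at 1.82 ± 0.14. The calmodulin-like CML39 had 14.1, 22.3, 12.3 and 17.2 CPM against 0.818, 0.237, 0.972 and 0.287, at 4.77 ± 0.45 (adjusted p = 1.25e-09). CML39 averaged 20.8 CPM in W2. MPK9 (1.52 ± 0.11) and calmodulin 7 (1.14 ± 0.12) were the other higher genes. The calcium sensor CBL4 (-4.06 ± 0.38) and CIPK21, a kinase of the family that such sensors bind (-1.54 ± 0.13), were lower.

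**Figure D5:**
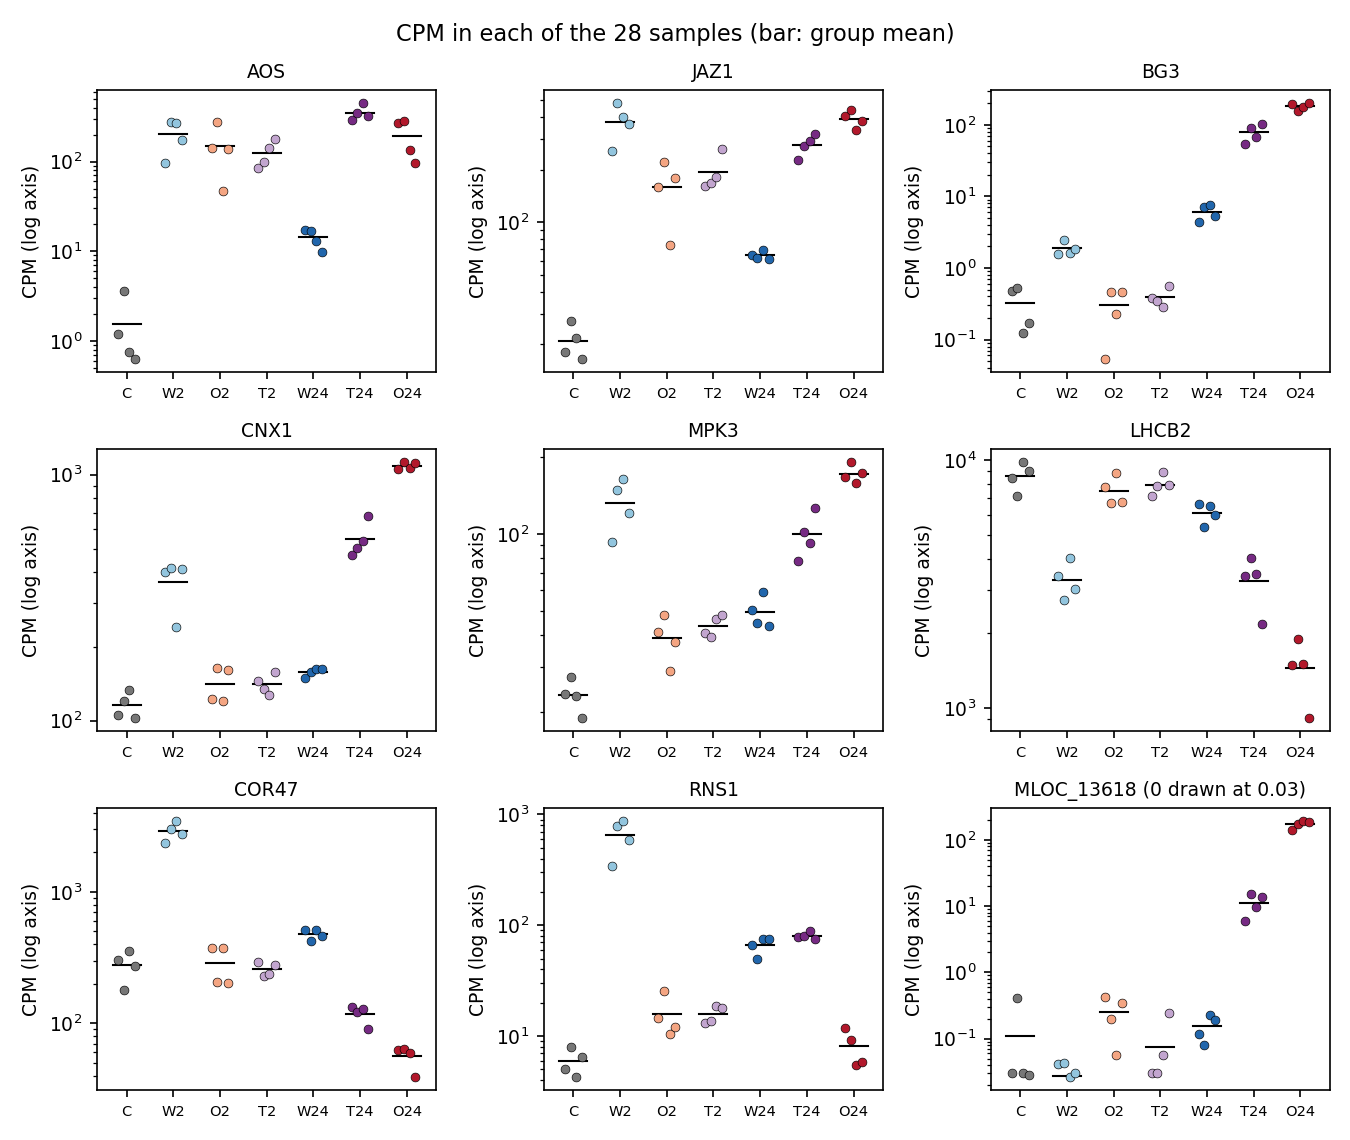
Points are the 28 samples in 7 groups for 9 genes, with CPM on log axes and bars at group means. AOS, JAZ1, BG3, CNX1, MPK3 and MLOC_13618 are higher in O24 than in W24, while LHCB2, COR47 and RNS1 are lower. For AOS, JAZ1 and MPK3 the W2 and O24 samples overlap, with the W2 mean of MPK3 below that of O24.

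The folding machinery of the endoplasmic reticulum, which processes secreted proteins, was higher in O24 throughout: 7 of 7 tested genes were called higher, with a median log2 fold change of 2.34. CNX1 (calnexin, a chaperone of glycoproteins) had 1058, 1121, 1061 and 1112 CPM in O24 and 149, 158, 162 and 162 in W24. The difference was 6.44-fold with hardly any spread between replicates (log2 fold change 2.69 ± 0.13, edgeR adjusted p = 1.63e-15). bZIP60, the transcription factor activated by splicing in the unfolded protein response, had 204, 192, 175 and 153 CPM against 26.7, 27.8, 36.5 and 27.7. The W24 mean of 29.7 CPM was near the untreated 27.5 ± 5.92 CPM, and O24 was above it in each sample (log2 fold change over W24 2.52 ± 0.13, adjusted p = 1.14e-14). SDF2, a partner of the co-chaperone ERdj3B, had 97.1, 111, 98.1 and 110 CPM against 16.1, 16.9, 17.7 and 18.8, at 2.48 ± 0.13. ERDJ3B itself showed 2.34 ± 0.12, the disulfide isomerase PDIL2-1 1.47 ± 0.14 and HRD3A, of the pathway that removes misfolded proteins, 1.29 ± 0.07. A calreticulin gene (CRT1A) showed 1.72 ± 0.31 at low levels, with means of 2.46 CPM in O24, 0.701 in W24 and 1.27 in C. Against a fold change of 2, calreticulin did not pass (adjusted p = 0.0184).

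Of the heat shock and cytosolic or plastid chaperone genes, 0 of 5 tested were higher and 1 was lower, with a median of -0.75. The called gene was BAG6, a heat-induced co-chaperone, at -1.33 ± 0.34, its samples overlapped between groups, and it did not pass against a fold change of 2 (adjusted p = 0.244). FES1A, a cofactor of HSP70, was at -0.18 ± 0.15 and the plastid HSP90 at -0.09 ± 0.13, neither called.

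Proteins of the cytosolic ribosome were also on the higher side. All 6 tested genes had positive log2 fold changes between 0.57 and 1.11, and 3 were called. RPL7C had 294, 318, 336 and 382 CPM in O24 and 110, 149, 142 and 175 in W24, without overlap, at 1.11 ± 0.16 (edgeR adjusted p = 7.55e-07). Because the values lie near the fold minimum, only 1 of the 3 calls was left without O24 replicate 4, without W24 replicate 1 or under upper-quartile scaling, and 0 were left in the test against a fold change of 2.

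Nuclear genes of photosynthesis formed the clearest group of lower genes. Of 18 tested, 15 were lower in O24 and 0 higher, with a median log2 fold change of -1.38. LHCB2, a light-harvesting protein of photosystem II, had 1485, 1902, 1504 and 907 CPM in O24 and 6635, 5351, 6508 and 6004 in W24. Each O24 sample was below every W24 sample, and the log2 fold change was -2.17 ± 0.22 (edgeR adjusted p = 1.83e-09). Untreated leaves had 8605 ± 1110 CPM and T24 leaves 3263 ± 771. LHCB6, a minor antenna protein, had 381, 450, 318 and 270 CPM in O24 against 1654, 1313, 1319 and 1311 in W24, at -2.08 ± 0.21 (adjusted p = 1.98e-09). GDCH, the H protein of glycine decarboxylase in photorespiration, had 116, 145, 88.9 and 95.4 CPM against 429, 404, 318 and 412, at -1.91 ± 0.24 (adjusted p = 9.87e-08).

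The lower genes belonged to both photosystems and the complexes around them. LHCB3 showed -2.01 ± 0.22, LHCA1 of photosystem I -1.70 ± 0.21 and the NDH subunit PNSB3 -1.90 ± 0.15. LTD, which delivers antenna proteins to the thylakoid, showed -1.73 ± 0.20, and the lumenal assembly factor CYP38 -1.25 ± 0.13. The 3 genes not called were the Calvin cycle transketolase TKL1 at -0.51 ± 0.10, the ribose-5-phosphate isomerase RPI3 at -0.22 ± 0.17 and NDHL at -0.99 ± 0.13. NDHL was just inside the fold minimum, without overlap between the groups, and was called lower in 9 of the alternatives. Some calls depended on single samples or on the fold minimum: PSBX was not called without O24 replicate 3 (-1.17), O24 replicate 4 (-1.15) or W24 replicate 1 (-0.82), ATPG not without W24 replicate 1 (-0.91), and 9 of the 15 passed the test against a fold change of 2. PSBX was also not called by limma-voom (-1.13), and ATPG not with library size alone (-0.96) or the stricter filter (-0.99). Antenna proteins are gene families, and only uniquely aligned reads were counted, so reads that close copies share are missing.

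Plastid-encoded genes were not called in either direction. Of 67 such genes listed in 4 groups, 51 had enough counts to test, and 0 were called by edgeR, DESeq2 or limma-voom, with group medians between -0.28 and -0.43. An unadjusted p under 0.05 was reached by 15 of the 51. Their summed share was 0.346 to 0.581% of the counts in O24 and 0.470 to 0.577% in W24. Libraries were selected for poly(A) tails, which plastid transcripts mostly lack, so these counts are a small remnant of the plastid RNA.

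The tetrapyrrole group, with enzymes that make or break down chlorophyll and heme, had 3 of 6 tested genes lower and 0 higher (median -0.96). CHLD, a subunit of magnesium chelatase, had 54.4, 66.8, 59.1 and 45.4 CPM in O24 against 110, 174, 138 and 160 in W24, at -1.46 ± 0.18 (edgeR adjusted p = 6.38e-08). The other chelatase subunit in the group, CHLI1, showed -1.12 ± 0.21, and CLH2, a chlorophyllase that acts on finished chlorophyll, -1.17 ± 0.27. Of the 3, only CHLD passed against a fold change of 2. All 6 isoprenoid genes had negative values down to -1.13, and 1 was called: a linalool synthase of the terpene synthase family (TPS14) at -1.13 ± 0.11, which did not pass that test (adjusted p = 0.189). The carotenoid enzyme ZDS, at -0.99 ± 0.09, made a second called gene without O24 replicate 2 (-1.04), O24 replicate 3 (-1.07), W24 replicate 2 (-1.02) or W24 replicate 3 (-1.04). ZDS was also called with upper-quartile scaling (-1.10), with no filter on low counts (-1.01) and in a fit of only the 8 samples (-1.01).

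Terpene synthases that the study itself named, chosen by it on these samples and therefore no independent evidence of direction, were higher in O24. MLOC_13618 had 143, 177, 191 and 186 CPM in O24 and 0.117, 0.0791, 0.232 and 0.191 in W24, at 9.99 ± 0.41 (edgeR adjusted p = 3.30e-16). It was nearly absent from all groups but O24 and T24, where the mean was 11.2 ± 4.18 CPM. MLOC_56812 had 13.1, 7.28, 1.79 and 2.29 CPM in O24, against 3 counts in all of W24, a ratio of 202 with a 95% counting interval from 68.8 to 984. MLOC_76989 had 3.93, 2.29, 0.421 and 0.164 CPM in O24 and no count in W24, so it was at least 55.3-fold higher, taking 3 counts over the group as the floor. Its mean was higher in O2 (4.99 CPM) and T24 (2.51 CPM) than in O24 (1.70 CPM). For both of these, O24 replicates 1 and 2 were above replicates 3 and 4, the same replicates that led for AOS and PI-I. Intervals and floors here cover counting error only.

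Next come the 2 largest differences in each direction among called genes with no overlap between groups and a mean of at least 1 CPM. None of these genes had an Arabidopsis partner in the part of the ortholog table given, which covered 1828 of the 16948 tested genes. MLOC_3110 had 18.4, 34.0, 82.8 and 39.3 CPM in O24 and no count in W24, at least 1501-fold higher against the same floor. MLOC_36849 had 1060, 1319, 795 and 635 CPM in O24 and 0.0779, 0.0791, 0.232 and 0.128 in W24, at 12.74 ± 0.89 (edgeR adjusted p = 7.34e-12). Both were low or absent in untreated leaves, and T24 reached 98.8 ± 40.0 CPM for MLOC_36849. In the other direction, MLOC_74934 had no count in O24 and 2.42, 1.86, 2.27 and 1.88 CPM in W24, at least 57.1-fold lower. MLOC_65431 had 1 count in all of O24 and 5.03, 3.84, 4.58 and 4.37 CPM in W24, a ratio of 365 (95% counting interval 65.1 to 14440).

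Among called genes with a partner, no overlap between groups and a mean of at least 1 CPM, the 12 largest differences in each direction included several of metabolism. The partner of AT2G20340, an aromatic aldehyde synthase that turns phenylalanine into phenylacetaldehyde in Arabidopsis, had 189, 312, 266 and 270 CPM in O24 and 0.662, 1.11, 0.972 and 1.12 in W24. Every O24 sample was far above W24 and above the untreated mean of 1.49 ± 0.224 CPM, and the log2 fold change over W24 was 7.96 ± 0.38 (edgeR adjusted p = 6.37e-15). T24 averaged 13.2 ± 8.19 CPM. The partner of AT1G10700, a phosphoribosyl pyrophosphate synthase, had 113, 199, 140 and 133 CPM against 6.23, 8.07, 8.43 and 7.05, at 4.21 ± 0.31. The partner of AT2G32300, a uclacyanin (a copper protein of the cell surface), had 7.09 ± 2.11 CPM (SD, n = 4) in O24 against 3 counts in W24. Partners of AT2G36290 (5.06 ± 0.31), AT1G08065 (an alpha carbonic anhydrase, 4.25 ± 0.51) and AT5G38260 (3.53 ± 0.22) completed the higher set with AOS and the defence, immune and calcium genes above.

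On the lower side the partner of AT1G13930 had 73.5, 63.3, 78.4 and 66.7 CPM in O24 and 745, 810, 900 and 850 in W24, at -3.65 ± 0.13 (edgeR adjusted p = 1.02e-16). W24 was above the untreated level of 301 ± 21.1 CPM and O24 below it, so the groups departed from C in opposite directions. The same held for the partner of AT5G08370, an alpha-galactosidase, with 30.7, 29.9, 28.2 and 23.4 CPM in O24, 208, 221, 247 and 203 in W24 and 106 ± 13.6 in C. Its log2 fold change was -3.06 ± 0.17. The other lower genes of this set not described elsewhere were the partners of AT4G22130 (a receptor-like kinase of the STRUBBELIG family, -4.21 ± 0.44), AT2G23060 (a relative of HOOKLESS1, -3.69 ± 0.30), AT2G28400 (-3.43 ± 0.26), AT1G71691 (a GDSL esterase, -3.34 ± 0.44) and AT1G74160 (-3.30 ± 0.42).

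Drought and abscisic acid genes were lower in 3 of 5 tested cases and higher in 0 (median -1.11). COR47, a dehydrin that protects cells during water loss, had 62.1, 63.8, 59.3 and 38.8 CPM in O24 and 509, 420, 516 and 460 in W24. Every O24 sample was far below W24, at -3.19 ± 0.25 (edgeR adjusted p = 3.52e-11), and also below the untreated mean of 279 ± 74.9 CPM. W2 leaves were at 2899 CPM on average. OST1, a kinase of abscisic acid signalling, showed -1.11 ± 0.15 and the bZIP factor ABF3 -1.39 ± 0.26. ABA3, which completes the molybdenum cofactor needed for abscisic acid synthesis, was at 0.67 ± 0.08, under the fold minimum. Neither OST1 nor ABF3 passed against a fold change of 2 (adjusted p = 0.351 and 0.0946).

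Both tested cuticle genes were lower in O24. LTPG1, which carries wax to the surface, had 1.24, 1.35, 1.37 and 0.778 CPM in O24 and 6.35, 5.18, 6.25 and 7.69 in W24, at -2.54 ± 0.19 (edgeR adjusted p = 8.98e-12). CER1, of wax alkane synthesis, had 1 count in O24 and 42 in W24, a ratio of 33.2 (95% counting interval 5.64 to 1341). Of 6 tested cell wall genes 1 was higher and 2 were lower. GAUT10, a pectin galacturonosyltransferase, was higher at 1.26 ± 0.09, whereas its relative GAUT8 was lower at -1.16 ± 0.19, though not against a fold change of 2 (adjusted p = 0.304). The wall-loosening beta-expansin EXPB3 had 0.609 ± 0.206 CPM (SD, n = 4) in O24 and 6.38 ± 0.733 in W24, at -3.48 ± 0.35, with untreated leaves at 0.136 CPM.

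Sugar and starch genes were lower in 5 of 11 tested cases and higher in 0 (median -0.49). SUT4, a vacuolar sucrose transporter, had 79.1, 88.7, 81.7 and 74.7 CPM in O24 and 160, 153, 163 and 211 in W24, at -1.18 ± 0.14 (edgeR adjusted p = 4.84e-08). Enzymes that make sucrose were also lower: the cytosolic fructose bisphosphatase cFBP had 409 ± 35.5 CPM (SD, n = 4) in O24 against 1024 ± 130 in W24 (-1.43 ± 0.15). A sucrose phosphate synthase (SPS3F) showed -2.82 ± 0.47, the glucose transporter SWEET1 -2.20 ± 0.44 and the trehalose phosphate synthase TPS6 -1.64 ± 0.34. SUT4 (adjusted p = 0.1515) and TPS6 (0.0457) did not pass against a fold change of 2. Genes of starch breakdown were not called, with the glucan water dikinase GWD at 0.14 ± 0.25 and the maltose exporter MEX1 at -0.08 ± 0.21.

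Hormone genes of growth went both ways, with 3 of 10 tested higher and 3 lower. CKX1, a cytokinin oxidase, had 2.96, 3.99, 2.21 and 2.13 CPM in O24 and 34.2, 38.1, 24.8 and 26.8 in W24, at -3.56 ± 0.35 (edgeR adjusted p = 2.30e-09). A relative with the same activity, CKX5, was higher at 1.11 ± 0.29, though not without O24 replicate 2 (0.96) or W24 replicate 2 (0.97). The cytokinin receptor AHK4 was higher at 1.55 ± 0.20. In gibberellin synthesis the early enzyme KO was lower at -1.91 ± 0.17 and the late enzyme GA20OX1 higher at 1.45 ± 0.38. PILS3, an auxin carrier, was lower at -2.61 ± 0.46. Neither CKX5 nor GA20OX1 passed against a fold change of 2 (adjusted p = 0.532 and 0.173).

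In the shikimate and phenylpropanoid group, 1 of 6 tested genes was higher and 2 were lower. A DAHP synthase, the entry enzyme to aromatic amino acids (DHS-like), had 902, 1252, 885 and 861 CPM in O24 and 172, 177, 157 and 165 in W24. That was a 5.44-fold difference (log2 fold change 2.44 ± 0.17, edgeR adjusted p = 1.87e-12), and W24 lay below the untreated mean of 221 ± 14.8 CPM. The flavonoid hydroxylase TT7 was lower at -2.60 ± 0.75 and a peroxidase (PRX25) at -1.39 ± 0.24. TT7 varied between replicates, and it was not called without O24 replicate 1, O24 replicate 3, O24 replicate 4 or W24 replicate 3 (-2.60, -2.39, -2.42 and -2.37, with adjusted p from 0.0101 to 0.0148). Neither it nor PRX25 passed against a fold change of 2 (adjusted p = 0.0360 and 0.0836).

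Redox genes were mostly close in the 2 groups, with 2 of 12 tested higher and 0 lower. GSTF13, a glutathione S-transferase of the kind that conjugates toxic compounds, had 695, 735, 668 and 830 CPM in O24 and 221, 206, 262 and 210 in W24, at 1.60 ± 0.14 (edgeR adjusted p = 9.75e-11). The organellar ascorbate peroxidase SAPX, which removes hydrogen peroxide, was at 150 ± 9.34 CPM (SD, n = 4) against 46.8 ± 6.41, at 1.59 ± 0.12. Thioredoxins and peroxiredoxins stayed under the fold minimum.

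In the cell division group 2 of 8 tested genes were higher and 0 lower, both subunits of the replicative helicase at low levels: MCM5 at 1.497 ± 0.42 and MCM3 at 1.18 ± 0.37. Both calls depended on single samples. MCM3 was not called without O24 replicate 1 (1.22, adjusted p = 0.0101), O24 replicate 3 (1.07), O24 replicate 4 (1.06), W24 replicate 1 (1.05) or W24 replicate 4 (0.93), and MCM5 not without W24 replicate 1 (1.30). MCM3 was also not called with upper-quartile scaling (1.08, edgeR adjusted p = 0.0115). Neither MCM3 (adjusted p = 0.468) nor MCM5 (0.169) passed against a fold change of 2. Clock and light genes had 2 of 5 tested lower and 0 higher (median -0.93), namely GIGANTEA at -1.14 ± 0.14 and the B-box protein BBX22 at -1.31 ± 0.20. Neither passed against a fold change of 2 (adjusted p = 0.210 and 0.0820). The morning factor LHY was at -0.93 ± 0.13, and was called without W24 replicate 3 (-1.01) and with upper-quartile scaling (-1.04).

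Ethylene signalling and autophagy, with 4 and 5 genes tested, had 0 called by edgeR, DESeq2 or limma-voom. In the ethylene group 1 gene reached an unadjusted p under 0.05, and in the autophagy group 4 did. The ethylene receptor ETR1 was at 0.03 ± 0.08 and the transcription factor EIN3 at 0.35 ± 0.13. The autophagy genes were all negative, from -0.02 ± 0.11 for the lipid kinase VPS34 to -0.89 ± 0.16 for ATG18H, and 4 of the 5 had an adjusted p under the threshold without reaching the fold minimum.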

How the data were processed

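Members of the comparison, gene groups and named genes were chosen with earlier results of these data known. The authors prepared stranded poly(A) libraries from barley leaf sections, aligned reads to the Ensembl barley assembly ASM3268v1 with STAR (version 2.5.1b in the submitters' processing notes) and counted uniquely aligned reads per gene on the reverse strand with HTSeq 0.6.0. The authors deposited unscaled read counts for each gene. The table held 25592 genes and 28 sample columns, with 0 columns of no sample and 0 rows naming no gene. 21860 genes had a count, and 16948 passed edgeR's filter by group (minimum count 10) and held 99.97% of the counts. The total count per sample sets the precision of low genes. Names came from 1998 ortholog pairs given here, of which 1828 were tested; 0 identifiers matched the RefSeq table, so no position or sequence is given.

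R 4.3.3 with edgeR 4.0.16 was used: TMM factors, 1 mean per group over all 28 samples, robust quasi-likelihood test of O24 minus W24, Benjamini-Hochberg adjusted p under 0.01 and absolute log2 fold change over 1. SEs are the log2 fold change divided by the square root of F. CPM values use library totals, except that correlations between samples used log2 CPM of tested genes with TMM factors and a prior count of 2. Library measures were compared by exact two-sided permutation over 70 assignments. The scripts were tested on simulated data. Alternatives were RLE, upper-quartile and library-size scaling, DESeq2 1.42.0, limma-voom (limma 3.58.1), glmTreat, other filters and thresholds, only the 8 samples, a replicate block and leaving out each sample. Named genes were all listed genes, the 2 most different genes in each direction and the 12 with an ortholog (called, no overlap on CPM, mean of at least 1 CPM), and 3 terpene synthases the study named. Each leaf enclosure gave 1 replicate. Sample pairs within a group differed by 12.9 to 37.7 in mean chi-square per gene, so none was a repeated library.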

Additional observations from a re-analysis of the deposited data

Results flagged for a closer look

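Of 40 named genes examined at both times, 14 were called in opposite directions at 24 h (O24 minus W24) and at 2 h (O2 minus W2). In the same direction at both times were 7, among them RNS1 and COR47. Another 18 were called at 24 h but not at 2 h, among them AOS, bZIP60, MAPKKK5, PAD4, BIR1, OM66 and GDCH. Not being called did not always mean no difference at 2 h. PAD4 (-0.96), BIR1 (-0.57) and MAPKKK5 (-0.35) were lower in O2 with an edgeR adjusted p under 0.01, inside the fold minimum. AOS, bZIP60, OM66 and GDCH did not reach that adjusted p. PI-I was not called at either time. The 2 h contrast was added after seeing the data. The 14 are given because their calls were opposite and the difference between the 2 contrasts had an edgeR adjusted p under 0.01. The differences between their log2 fold changes follow from that choice and are a description, so that p is no independent evidence. Over all tested genes, 4989 were called at 24 h and 4470 at 2 h (1633 higher in O2 and 2837 lower). Among them, 965 were higher at 24 h and lower at 2 h, and 692 lower at 24 h and higher at 2 h. The 40 genes were named with the 24 h results known, so their tally is a description to be read beside these counts. W2 leaves were sampled soon after abrasion and 2 h mite leaves carried 400 mites in place of 200, so time, damage and mite number cannot be told apart.

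JAZ1 had log2 fold changes of 2.50 at 24 h and -1.32 at 2 h, a difference of 3.81. NINJA had 1.17 and -1.25 (difference 2.42), the chitinase CHIV 5.03 and -2.74 (difference 7.77), and the glucanase BG3 4.80 and -2.71 (difference 7.51). The callose synthase PMR4 went the other way, with -1.43 and 1.26 (difference -2.68). Of the kinase and calcium genes, MPK3 had 1.71 and -1.82 (difference 3.53), CPK7 1.82 and -1.49 (difference 3.32) and CML39 4.77 and -4.88 (difference 9.65).

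In the endoplasmic reticulum, CNX1 had 2.69 at 24 h and -1.42 at 2 h (difference 4.11) and SDF2 had 2.48 and -1.55 (difference 4.04). GSTF13 had 1.60 and -1.24 (difference 2.84). LHCB2 had -2.17 and 1.14 (difference -3.31) and LHCB6 -2.08 and 1.12 (difference -3.20), the 2 antenna genes examined in this way. CKX1 had -3.56 and 2.57 (difference -6.12).

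Of 89 groups of 4 values examined for 1 sample far from the other 3, 5 were found, and chance alone gives about 1 in 20. W24 replicate 3 had 36.5 CPM of bZIP60 where the next sample had 27.8. W24 replicate 1 had 1650 CPM of LHCB6 against 1320, and 32.6% of its counts in the 100 most abundant genes against 29.9% in the next. O24 replicate 2 had 1250 CPM of the DAHP synthase against 902. O24 replicate 4 had 0.0410 CPM of MLOC_65431, 1 count, where the others had none.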

How the results depend on the processing

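Of 104 called named genes, 70 kept their direction and call in every alternative fit that tested them. The stricter filter left some low genes untested, and the changed thresholds were not applied to named genes. No gene called both here and in an alternative was called in opposite directions. Scaling shifted the median of all genes by -0.10 (upper quartile) to 0.10 (library size) on the log2 scale. The share of calls that were higher was 53% and turned to 47% with upper-quartile factors. It was 54.6% with RLE factors and with DESeq2, 59% with library size alone, 59.1% with at least 5 CPM in 4 samples, 61.6% with glmTreat and 51.1% with no fold minimum. Called genes numbered 2750 with glmTreat (1693 higher, 1057 lower, 50 listed genes in place of 84), and 9960 with no fold minimum (5085 higher, 4875 lower). The stricter filter left 1493 lower genes. The causes were not tested, beyond that glmTreat and the missing fold minimum move the fold that a call requires and the filter tests fewer genes (12897). Leaving out 1 sample gave 4752 to 5098 called genes. The study used a randomized block design, and the sample titles do not say whether replicate numbers follow its blocks. Deviations of same-numbered samples correlated at 0.13, -0.01, -0.02 and 0.13, against -0.19 to 0.11 for other pairs. These values do not settle whether the samples were paired. A fit with the replicate number as a block called 5010 genes (2656 higher, 2354 lower). CPM scaled by TMM factors gave 10950 genes without overlap in place of 10745. Low genes, those near 1 CPM, are where depth limits the calls.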
